A study of Mus musculus with 12 samples.

Results

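The transcripts described here are those of 44 genes of glycolysis, pyruvate metabolism and the tricarboxylic acid (TCA) cycle, taken by gene symbol from a list of the pathway and found, all 44, among the 24259 gene symbols measured. RNA came from germinal vesicle (GV) oocytes, which are held in prophase of the first meiosis, of 3-week-old wild-type (WT) and *Lsm14b*-KO mice. *Lsm14b* encodes an RNA-binding protein, and the KO mice carried 2 copies of the allele Lsm14b tm1a(KOMP)Mbp, a reporter-tagged insertion present in every cell of the animal, on a C57BL/6J background. Mice of both genotypes had received 5 IU of PMSG, and their oocytes were collected 46 h later and stored with cycloheximide, which holds ribosomes on mRNA. Each lysate held about 1500 oocytes and was spread over a sucrose gradient cut into 28 fractions, of which fractions 1 to 10 were joined as the RNP pool (RNA in particles lighter than polysomes) and fractions 11 to 28 as the polysome pool. There were 3 libraries for each pool and genotype, 12 in all. Which mice gave the oocytes of which lysate is not given in the sources used here, so the p-values measure the spread between libraries, which may in part be technical.

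Glycolysis splits glucose into pyruvate in the cytosol, lactate dehydrogenase interconverts pyruvate and lactate, and pyruvate enters the mitochondrion through a carrier to be oxidized by the pyruvate dehydrogenase complex and then by the TCA cycle. Mouse oocytes are known to use glucose poorly on their own and to depend on pyruvate, which the cumulus cells around them supply. The fully grown GV oocyte is close to transcriptional silence, so its mRNA is largely a store that is divided between translated and untranslated forms.

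The libraries held about 4684000 to 7874000 fragments by an estimate from the lowest values, and between 10566 and 12720 genes were above 0 in each. WT polysome libraries had 10566 to 10814 such genes and about 6079000 to 7874000 fragments. KO polysome libraries had more genes above 0, 11458 to 11650, at about 4684000 to 6515000 fragments. In the RNP pool the genes above 0 numbered 11270 to 12720 in WT and 12487 to 12595 in the KO. The part of this in the differences below was not tested. Values are FPKM, fragments per kilobase of transcript scaled to the same total of mapped fragments. *Lsm14b* itself lay between 11.3 and 15.3 FPKM in WT polysomes and between 27.4 and 34.6 FPKM in the WT RNP pool, and at most at 0.260 and 0.893 FPKM in the KO pools. In the KO polysome library of replicate 2, a single small RNA gene, *Mir300* (named after its values were seen), was listed at 170809 FPKM, and the top 10 genes took 34.7% of the summed FPKM there, against 11.6% to 14.7% elsewhere. The 14 oocyte markers examined passed the filter in each comparison, and their summed level also lay higher in the KO without overlap, at 23126 to 24607 FPKM in WT and 26839 to 28968 FPKM in KO polysomes, and at 6835 to 7235 FPKM in the WT and 8448 to 8757 FPKM in the KO RNP pool. *Gdf9* made up most of each polysome sum, and its values there overlapped, at 14480 to 16191 FPKM in WT and 16108 to 18497 FPKM in the KO. Not all markers rose, and *Dazl* and *Mos* were lower in the KO in both pools without overlap. Of 15 markers of granulosa and cumulus cells, *Fshr*, *Inha* and *Inhba* were higher in KO polysomes and *Inha* in the KO RNP pool (limma, adjusted p under 0.05). Except for *Inha* in polysomes, where it was at 0 to 9.58 FPKM in WT and 39.4 to 51.4 FPKM in the KO, these passed the filter only through the KO libraries and had to differ. The 15 markers summed to 143 to 223 FPKM in WT polysomes, 230 to 318 FPKM in KO polysomes, 198 to 223 FPKM in the WT RNP pool and 225 to 262 FPKM in the KO RNP pool. *Serpine2* made up most of each sum, *Amhr2* and *Foxl2* were above 0 in 1 library each, and *Amh* did not pass 1.44 FPKM. Theca and stroma markers summed to at most 3.22 FPKM, and the hemoglobin genes and *Ptprc*, a marker of blood cells, were at 0 in each library. The 13 markers of blood, immune and endothelial cells summed to 13.9 to 42.1 FPKM and none was called. The part of follicle cells in the differences below was not tested. In pooled oocytes, fewer cells of a type and less RNA per cell cannot be told apart.

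The 44 transcripts spanned the whole range of abundance (see the plot of levels by library). In their highest group, 7 had a mean of at least 100 FPKM, namely *Ldhb*, *Pkm*, *Sdhd*, *Cs*, *Dlst*, *Sdhc* and *Tpi1*. A further 18 reached a mean of 10 to 100 FPKM and 13 a mean of 1 to 10 FPKM, and 6 stayed under a mean of 1 FPKM in each group. These 6 were the hexokinases *Hk1* and *Hk2*, the aldolase *Aldoc*, *Gapdh*, *Eno1* and the mitochondrial isocitrate dehydrogenase *Idh2*. *Ldhb* alone made up 68.7% to 71.3% of the summed FPKM of the 44 genes in WT polysomes and 67.8% to 73.1% in KO polysomes, but 18.0% to 22.3% in the WT and 19.5% to 19.8% in the KO RNP pool. The summed FPKM of the other 43 genes was 1527 to 1560 in WT polysomes and 2111 to 2273 in KO polysomes, and 1326 to 1385 in the WT and 1692 to 1812 in the KO RNP pool. Thus the KO libraries lay above the WT libraries in both pools with *Ldhb* set aside, without overlap. The summed FPKM of all genes also did so, at 462724 to 494051 in WT and 502913 to 698228 in KO polysomes. In the RNP pool it was 440127 to 446365 in WT and 456202 to 466960 in the KO. The highest of these sums, 698228, was that of the library with *Mir300* at 170809 FPKM, and the other KO polysome libraries were at 502913 and 539151. The lack of overlap was thus not particular to these genes, although in proportion the gap was wider for the 43 genes in both pools.

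**Figure D1:**
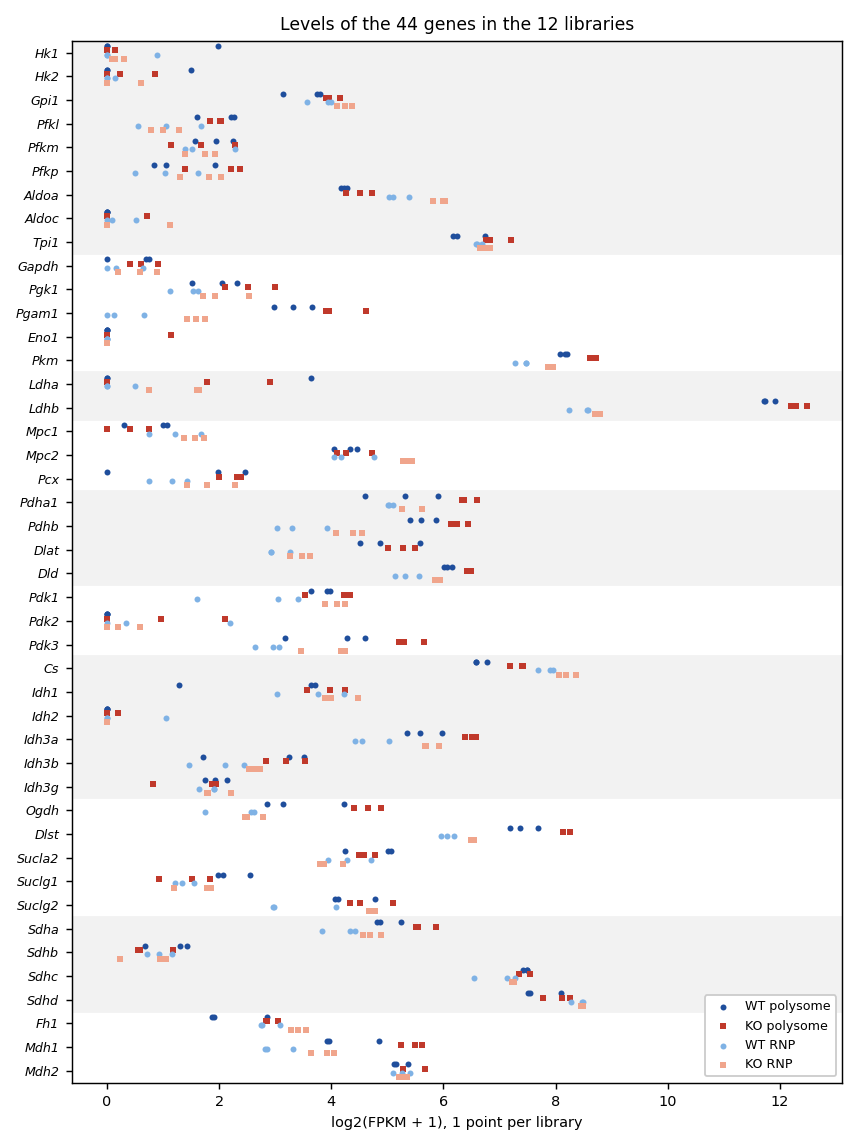
Level of each of the 44 transcripts in the 12 libraries, on the horizontal axis as log2(FPKM + 1), 1 point per library, with the genes in pathway order from glycolysis to malate dehydrogenase and shading that marks alternate steps. The polysome libraries (dark) of *Ldhb* stand far to the right of all other points. Its RNP libraries (pale), at 299 to 440 FPKM, lie in a range that points of *Sdhd* and *Pkm* also reach. *Hk1*, *Hk2*, *Aldoc*, *Gapdh*, *Eno1* and *Idh2* lie near 0.

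Low values of some members cannot be taken as absence. By a search of the annotated GRCm38 transcripts, 12 of the 44 members had at least 1 near-identical copy (at least 95% identity over 300 bases or more), among which reads may be divided or lost. Copies outside annotated transcripts were not searched for. *Gapdh*, a glycolytic enzyme that most cells transcribe strongly, had 77 such copies and was listed at 0 to 0.883 FPKM. *Eno1*, the main enolase, was listed under 0.001 FPKM in 11 libraries and at 1.19 FPKM in KO polysome replicate 1. Its near-identical copy *Eno1b* was listed at 7.79 to 16.8 FPKM and did not differ past the threshold in any comparison. *Pgk1* had 4 copies, *Ldha* and *Eno1* 3 each, and *Gpi1*, *Tpi1*, *Pgam1*, *Pkm*, *Ldhb*, *Mpc1*, *Pdhb* and *Suclg2* had 1 each, so their values are uncertain to that extent.

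Genotypes were compared in each pool on the scale of log2(FPKM + 1), over genes at 1 FPKM or more in at least 3 of the 6 libraries. The pseudocount of 1 makes the changes of low genes smaller. In polysomes, 36 of the 44 members passed the filter, and 7 were higher in the KO at an adjusted p from limma under 0.05, a share of 19.4%, while none was lower. Among all 9536 genes tested, 10.4% were called, 5.64% as higher and 4.73% as lower. The 7 were *Pkm*, *Ldhb*, *Pdha1*, *Cs*, *Idh3a*, *Dlst* and *Mdh1*, and in unadjusted terms 14 members had a p under 0.05, as did 26.3% of all genes tested. In the RNP pool, 35 members passed the filter, and 11 were higher in the KO and none lower, a share of 31.4%, against 10.5% higher and 10.2% lower among all 9931 genes tested. The 11 were *Aldoa*, *Pgam1*, *Pkm*, *Mpc2*, *Pdhb*, *Dld*, *Pdk3*, *Idh3a*, *Dlst*, *Suclg2* and *Mdh1*, and 15 members had an unadjusted p under 0.05, as did 34.1% of all genes. *Pgam1* passed the filter only through the KO libraries and had to differ there. *Pkm*, *Idh3a*, *Dlst* and *Mdh1* were called in both pools. The share of all genes called in both pools was not computed, so this overlap has no background to set it against.

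Most members that missed the threshold also had a KO mean above the WT mean. The change was above 0 for 30 of 36 members in polysomes and for 32 of 35 in the RNP pool. The median change of the members tested was 0.48 in polysomes and 0.46 in the RNP pool, and that of all genes tested 0.10 and 0.05. A like median was found outside the pathway: for the 14 oocyte markers it was 0.50 in polysomes, with 4 called higher and 2 lower, and 0.52 in the RNP pool, with 8 called higher and 2 lower. Each KO library lay above each WT library for 15 of the 36 members in polysomes and for 21 of the 35 in the RNP pool, where 18.2% and 20.7% of all genes tested did so. The members were somewhat more abundant than the genes at large, with a median of 20.9 against 11.1 FPKM in polysomes and 14.8 against 10.1 FPKM in the RNP pool. The polysome calls were the least settled. Without the intensity trend in the variance model none of the 36 members passed (limma, with 13 at an unadjusted p under 0.05), and leaving out KO polysome replicate 2 or replicate 3 left 1 call and leaving out replicate 1 left 4, while all 7 changes stayed above 0 without any single library. In the RNP pool, 5 members were called without KO RNP replicate 2 or 3, 6 without KO RNP replicate 1 and 7 without WT RNP replicate 2.

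**Figure D2:**
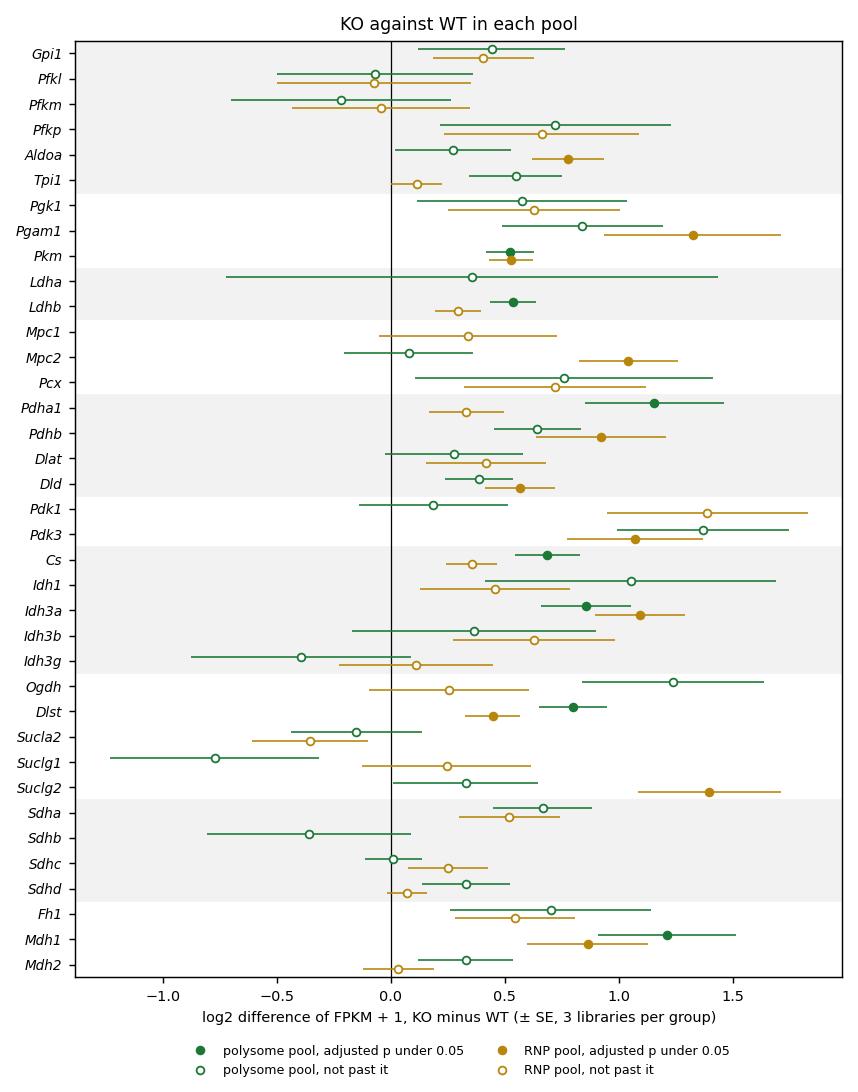
Difference between KO and WT on the scale of log2(FPKM + 1) for the 37 members tested in at least 1 pool, with bars of 1 standard error from limma (3 libraries per group), green for polysomes and gold for the RNP pool, filled where the adjusted p was under 0.05. The 7 filled green and 11 filled gold points all lie to the right of 0, and the change of *Ldhb* in polysomes, drawn here from FPKM as deposited, turned to -0.030 under quantile normalization.

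The pools were then compared within each genotype, which shows how a transcript was divided between polysomes and lighter particles relative to the other transcripts of the same library. In WT, 36 members passed the filter, of which 8 were higher and 3 lower in polysomes than in the RNP pool (30.6% called), against 7.97% higher and 6.72% lower among 9574 genes. Higher in polysomes were *Ldhb*, *Pgam1*, *Pdhb*, *Dlat*, *Dlst*, *Idh3a*, *Pkm* and *Dld*, and lower were *Cs*, *Aldoa* and *Sdhd*. In the KO, 14 of 36 were higher and 5 lower (52.8% called), against 15.5% and 13.8% of 9851 genes. These included all 8 and all 3 of the WT, and in addition *Ogdh*, *Mdh1*, *Pdk3*, *Pdha1*, *Sdha* and *Sucla2* as higher and *Mpc1* and *Mpc2* as lower. Without adjustment, 21 of the 36 had a p under 0.05 in the KO, as did 40.2% of all genes tested. Each polysome library lay above each RNP library for 15 of the 36 members in WT and for 17 in the KO, where 16.7% and 22.5% of all genes did so. The replicates of the KO agreed more closely over the members (Pearson correlation 0.971 to 0.985 in polysomes and 0.988 to 0.994 in the RNP pool) than those of the WT (0.937 to 0.964 and 0.965 to 0.984). *Pgam1* in WT and *Mpc1* in the KO passed the filter only through the pool where they were high, and had to differ there. Of the 11 WT calls, those of *Ldhb*, *Pdhb*, *Dlat*, *Dlst* and *Cs* held under each of 15 alternatives. *Pgam1* held in the 12 in which it was tested, since it passed the filter only with all 3 WT polysome libraries. As it had to differ, this adds no support to its call. Of the 19 KO calls 16 held under each alternative, the exceptions being *Mpc1*, *Sdhd* and *Sucla2*. Leaving out WT polysome replicate 3 left 6 WT calls, and leaving out WT polysome replicate 1, WT RNP replicate 1 or WT RNP replicate 3 left 7.

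Whether the division between pools differed by genotype was tested as an interaction, in 1 fit over the 12 libraries. None of the 37 members passed (limma, with 3 at an unadjusted p under 0.05), against 0.237% of 10949 genes (0.0822% higher and 0.155% lower), or 11.1% without adjustment. The same 0 came from each of the 20 alternatives. The 3 members were *Mpc2* with an interaction of -0.96, *Pdha1* with 0.83 and *Suclg2* with -1.07. The calls found in the KO and missed in the WT are therefore not shown to differ between the genotypes. Over 35 members, the polysome-minus-RNP differences of WT and KO had a Pearson correlation of 0.883 and a Spearman correlation of 0.834, and 29 had the same sign. Over 8999 genes the Pearson correlation was 0.623 and the Spearman correlation 0.612, and 73.7% had the same sign, against 82.9% of the members. The KO-minus-WT changes of 34 members were less correlated between polysomes and the RNP pool (Pearson 0.378, Spearman 0.411), although 94.1% had the same sign. Over 9100 genes these correlations were 0.610 and 0.556, and 70.1% had the same sign. These correlations run across genes, which share their libraries and are not independent. With transcript length, the polysome-minus-RNP differences of 36 members had a Spearman correlation of 0.219 in each genotype.

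**Figure D3:**
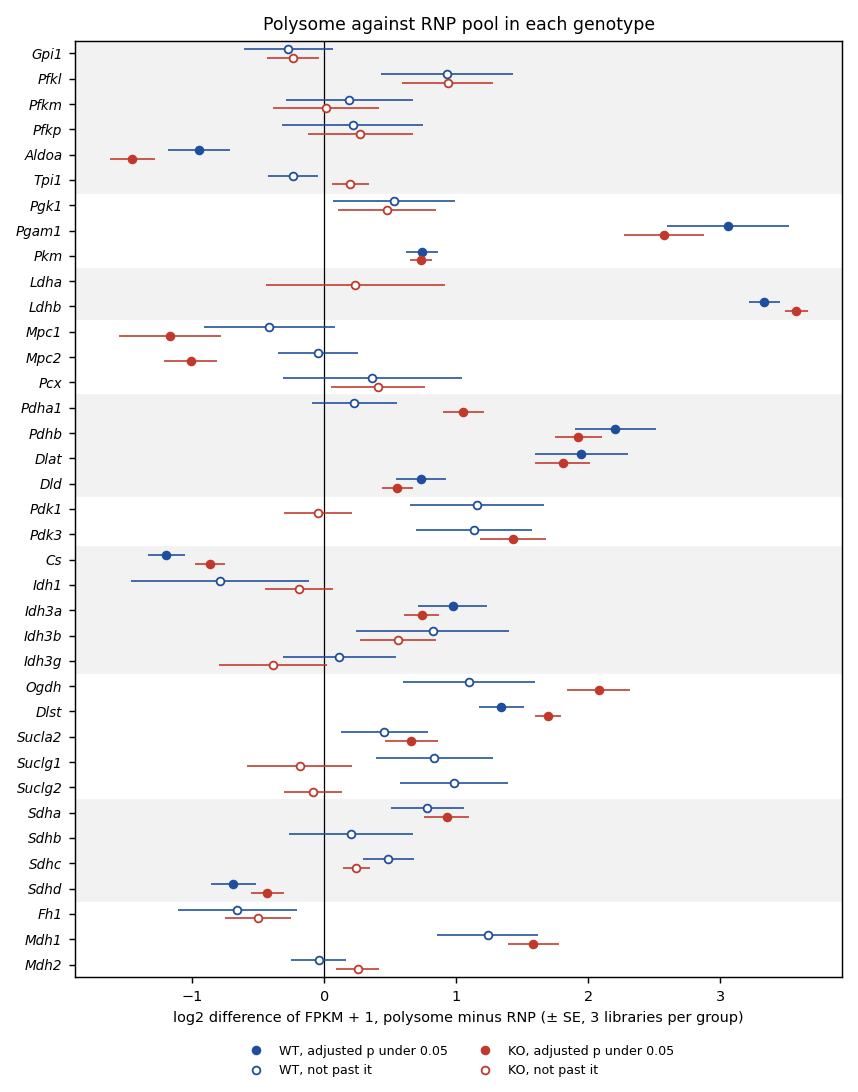
Difference between the polysome and RNP pools on the scale of log2(FPKM + 1), blue for WT and red for KO, with bars of 1 standard error from limma (3 libraries per group) and filled points where the adjusted p was under 0.05. *Ldhb* and *Pgam1* lie farthest to the right in both genotypes, *Cs* and *Aldoa* lie to the left of 0 in both, and *Mpc2* lies at -0.05 in WT and at -1.01 in KO.

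Among the enzymes that turn glucose into triose phosphates, aldolase was the member that changed. *Aldoa* (chr7:126795234-126800751, minus strand), which splits fructose bisphosphate, was at 31.5, 33.4 and 40.9 FPKM in the WT RNP libraries and at 55.5, 64.4 and 62.6 FPKM in the KO. In polysomes it was at 16.9, 18.3 and 17.8 FPKM in WT and at 18.2, 25.3 and 21.7 FPKM in the KO. All KO RNP values were above all WT RNP values, while the polysome values overlapped. The change was 0.78 (SE 0.16, limma adjusted p = 0.00869) in the RNP pool, 1.73 times the WT mean, and 0.27 (SE 0.26, limma adjusted p = 0.551) in polysomes. *Aldoa* was lower in polysomes than in the RNP pool in both genotypes, by -0.95 in WT (SE 0.23, limma adjusted p = 0.0292) and by -1.45 in the KO (SE 0.17, limma adjusted p = 0.000277). The WT difference lost its call without any of the 3 WT RNP libraries or WT polysome replicate 1 or 3 (adjusted p up to 0.118). An exon of *Fam57b* overlaps *Aldoa* on the other strand, but *Fam57b* was listed at 0.0983 FPKM or less.

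The other enzymes of this stretch did not pass in any comparison. *Tpi1*, the triose phosphate isomerase, was the most abundant, at 75.0, 70.7 and 106 FPKM in WT polysomes and 146, 112 and 108 FPKM in KO polysomes. Its change of 0.55 (SE 0.20) had an adjusted p of 0.129 from limma, and in the RNP pool it lay between 94.4 and 112 FPKM in all 6 libraries. *Gpi1*, which isomerizes glucose phosphate, lay between 7.83 and 19.7 FPKM, with each KO library above each WT library in both pools but changes of 0.44 and 0.41 that missed the threshold (limma adjusted p = 0.428 and 0.229). The 3 subunit genes of phosphofructokinase, the committing step of glycolysis, were all low, with *Pfkl* at 0.474 to 3.80 FPKM, *Pfkm* at 1.21 to 3.89 FPKM and *Pfkp* at 0.420 to 4.18 FPKM. The hexokinases, which phosphorylate glucose on entry, were lower still. *Hk1* was at 2.94 FPKM in WT polysome replicate 2 and under 1 FPKM in the other 11 libraries, and *Hk2* at 1.84 FPKM in the same library and under 1 FPKM elsewhere. *Aldoc* reached 1.18 FPKM in KO RNP replicate 2 and was at 0 in 8 libraries.

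In the lower part of glycolysis, the pyruvate kinase transcript rose by a like amount in both pools. *Pkm* (chr9:59656368-59679375, plus strand), whose product forms pyruvate and ATP, was at 292, 286 and 268 FPKM in the WT polysome libraries and at 389, 422 and 403 FPKM in the KO. In the RNP pool it was at 176, 175 and 154 FPKM in WT and at 233, 248 and 247 FPKM in the KO. The genotypes did not overlap in either pool, nor did the pools in either genotype. The KO mean was 1.44 times the WT mean in each pool, with changes of 0.52 in polysomes (SE 0.11, limma adjusted p = 0.0184) and 0.53 in the RNP pool (SE 0.10, limma adjusted p = 0.00518). The polysome mean was 1.67 times the RNP mean in each genotype, a difference of 0.74 in both (limma adjusted p = 0.00461 in WT and 0.000255 in the KO). The polysome change lost its call without KO polysome replicate 2 or 3 (adjusted p up to 0.0937).

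*Pgam1* (chr19:41911923-41918660, plus strand), the phosphoglycerate mutase, had a higher FPKM in polysomes in WT, at 9.0, 11.6 and 6.85 FPKM there and at 0, 0.0917 and 0.571 FPKM in the RNP pool. In the KO it was at 14, 23.4 and 14.5 FPKM in polysomes and at 2.34, 1.99 and 1.69 FPKM in the RNP pool. Every polysome library stood above every RNP library, and in each pool the KO libraries stood above the WT libraries. The polysome-minus-RNP difference was 3.06 in WT (SE 0.46, limma adjusted p = 0.00342) and 2.57 in the KO (SE 0.30, limma adjusted p = 0.000273). The KO change was 1.32 in the RNP pool (SE 0.39, limma adjusted p = 0.0402) and 0.84 in polysomes (SE 0.35, limma adjusted p = 0.171). Between the WT pools *Pgam1* passed the filter only through polysomes, and in the RNP pool only through the KO, so it had to differ in both tests. The RNP call was lost without WT RNP replicate 1 or 2 (adjusted p up to 0.0806). *Pgk1*, the phosphoglycerate kinase, stayed between 1.19 and 6.94 FPKM and passed in no comparison.

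*Ldhb* (chr6:142490249-142507957, minus strand), the heart-type lactate dehydrogenase subunit, was the most abundant of the 44 transcripts and ranked 7 of 24259 in WT polysomes by its mean. Its level in WT polysomes was 3356, 3399 and 3870 FPKM, and in the WT RNP pool 374, 381 and 299 FPKM. In the KO it was 5745, 5014 and 4681 FPKM in polysomes and 418, 440 and 429 FPKM in the RNP pool. The pools thus stood 10.1 times apart in WT and 12 times apart in the KO, with no overlap. On the log2 scale the polysome-minus-RNP difference was 3.34 in WT (SE 0.11, limma adjusted p = 1.26e-06) and 3.58 in the KO (SE 0.08, limma adjusted p = 4.05e-08), and the 2 did not differ past the threshold (interaction 0.24, limma adjusted p = 0.582). *Ldhb* was 1.45 times as high in KO as in WT polysomes, a change of 0.54 (SE 0.10, limma adjusted p = 0.0135), which became -0.030 under quantile normalization. The adjusted p stayed at or under 0.0468 without any single library. In the RNP pool the change was 0.29 (SE 0.10, limma adjusted p = 0.0738). *Ldha*, the muscle-type subunit, was at 11.4 FPKM in WT polysome replicate 1 and at 0 in the other 2 WT polysome libraries, and lay between 0 and 6.54 FPKM in the KO.

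**Figure D4:**
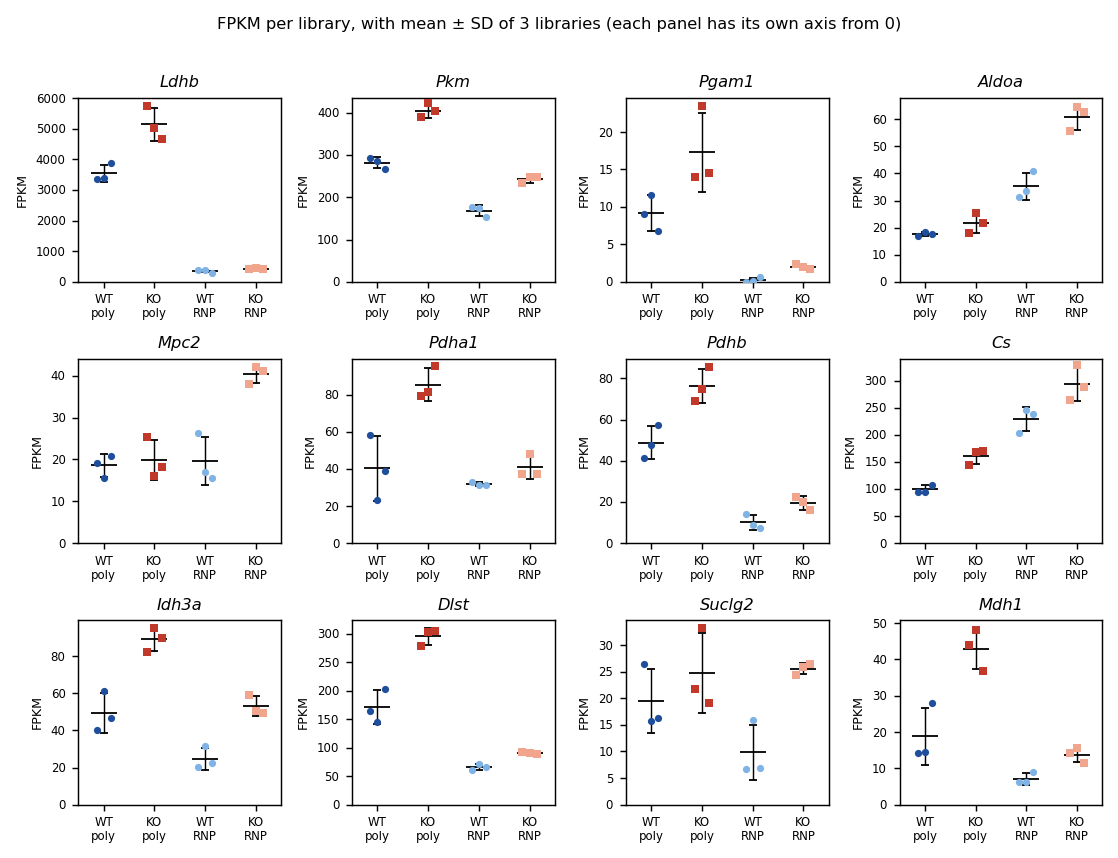
FPKM of 12 members in each library, on a linear axis from 0 that differs between panels, with the mean and SD of 3 libraries per group in black. *Ldhb* stands at 3356 to 5745 FPKM in polysomes and at 299 to 440 FPKM in the RNP pool, *Cs* and *Aldoa* stand higher in the RNP pool, and *Mpc2* and *Suclg2* overlap between genotypes in polysomes but not in the RNP pool. The direction of *Ldhb* between KO and WT polysomes turned under quantile normalization (-0.030).

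The mitochondrial pyruvate carrier is a pair of subunits, *Mpc1* and *Mpc2*. *Mpc2* (chr1:165460637-165481214, plus strand) was at 26.2, 17 and 15.5 FPKM in the WT RNP libraries and at 38.0, 42.2 and 41 FPKM in the KO. In polysomes it was at 19.2, 15.6 and 20.9 FPKM in WT and 25.3, 16.1 and 18.2 FPKM in the KO. The genotypes did not overlap in the RNP pool, where the KO mean was 2.06 times that of WT, and overlapped in polysomes. The RNP change was 1.04 (SE 0.22, limma adjusted p = 0.00995) and the polysome change 0.08 (SE 0.28, limma adjusted p = 0.890), and the difference of these changes, the interaction of -0.96 (SE 0.35), had an adjusted p of 0.308 from limma. Within the KO, *Mpc2* was lower in polysomes by -1.01 (SE 0.20, limma adjusted p = 0.00476), while in WT the pools overlapped (-0.05, limma adjusted p = 0.935). *Mpc1* was scarce, at 0.690 to 2.31 FPKM in the RNP pool and 0 to 1.11 FPKM in polysomes, and in the KO its difference was -1.17 (SE 0.39, limma adjusted p = 0.0487). That call was lost without KO polysome replicate 2 or 3 (adjusted p up to 0.114), and *Mpc1* had passed the filter only through the KO RNP libraries and had to differ. *Pcx*, the pyruvate carboxylase that feeds oxaloacetate into the cycle, lay between 0 and 4.49 FPKM and passed in no comparison.

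The pyruvate dehydrogenase complex turns pyruvate into acetyl-CoA, and all 4 of its member genes had a higher mean in the KO in both pools. *Pdha1* (chrX:160122209-160138413, minus strand), the catalytic alpha subunit encoded on the X chromosome, was at 58.5, 23.4 and 38.9 FPKM in the WT polysome libraries and at 79.5, 81.3 and 95.6 FPKM in KO polysomes. Its RNP values were 33.2, 31.3 and 31.6 FPKM in WT and 37.4, 47.8 and 37.1 FPKM in the KO. The WT polysome libraries were widely spread, yet the KO libraries all lay above them. The polysome change was 1.16 (SE 0.30, limma adjusted p = 0.0468), 2.12 times the WT mean, and the RNP change 0.33 (SE 0.16, limma adjusted p = 0.191). The polysome call was lost without any library but WT polysome replicate 1 (adjusted p up to 0.146). Within the KO, *Pdha1* was higher in polysomes by 1.05 (SE 0.15, limma adjusted p = 0.000964), while in WT the pools overlapped. An exon of *Map3k15* overlaps *Pdha1* on the other strand and was at 0.412 FPKM or less.

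*Pdhb* (chr14:8165996-8173025, minus strand), the beta subunit, had a higher FPKM in polysomes, at 41.4, 47.7 and 57.4 FPKM there in WT against 14.2, 8.88 and 7.16 FPKM in the RNP pool. The KO values were 68.9, 74.8 and 85.4 FPKM in polysomes and 22.5, 19.9 and 16 FPKM in the RNP pool. Neither pools nor genotypes overlapped. The pool difference was 2.21 in WT (SE 0.31, limma adjusted p = 0.00238) and 1.93 in the KO (SE 0.17, limma adjusted p = 6.77e-05). The KO change was 0.92 in the RNP pool (SE 0.28, limma adjusted p = 0.0481) and 0.64 in polysomes (SE 0.19, limma adjusted p = 0.0680). The RNP call was lost without WT RNP replicate 2 or 3 or without any KO RNP library (adjusted p up to 0.164).

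*Dlat* (chr9:50634633-50659780, minus strand), the acetyltransferase core of the complex, was at 28.1, 46.8 and 21.7 FPKM in the WT polysome libraries and at 6.57, 8.63 and 6.57 FPKM in the WT RNP pool. In the KO it was at 31.2, 44.3 and 37.7 FPKM in polysomes and at 11.2, 8.6 and 10.2 FPKM in the RNP pool. It was higher in polysomes by 1.95 in WT (SE 0.35, limma adjusted p = 0.00825) and by 1.81 in the KO (SE 0.21, limma adjusted p = 0.000252), while the genotypes overlapped in both pools. *Dld* (chr12:31331277-31351453, minus strand), the lipoamide dehydrogenase that this complex shares with the oxoglutarate dehydrogenase complex, was at 46.3, 34.2 and 38.6 FPKM in the WT and 56.9, 59.3 and 60.4 FPKM in the KO RNP pool. In polysomes it was at 65.5, 69.9 and 63.3 FPKM in WT and 88.5, 87.2 and 85.0 FPKM in the KO. The genotypes were apart in both pools, and the RNP change of 0.57 passed (SE 0.15, limma adjusted p = 0.0300), while the polysome change of 0.39 did not (SE 0.15, limma adjusted p = 0.140). *Dld* was higher in polysomes by 0.73 in WT (SE 0.19, limma adjusted p = 0.0354) and by 0.55 in the KO (limma adjusted p = 0.00661). The RNP call was lost without WT RNP replicate 2 or 3 or any KO RNP library (adjusted p up to 0.102), and the WT pool call without any of its 6 libraries (adjusted p up to 0.118).

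The kinases that switch the complex off by phosphorylation had 1 member that changed. *Pdk3* (chrX:93764607-93832201, minus strand) was at 7.36, 5.20 and 6.76 FPKM in the WT RNP libraries and at 9.94, 17.1 and 17.9 FPKM in the KO. In polysomes it was at 18.3, 8.0 and 23.4 FPKM in WT and at 49.3, 36.0 and 38.3 FPKM in the KO. The genotypes were apart in both pools, by 2.32 times in the RNP pool and 2.48 times in polysomes. The RNP change of 1.07 passed (SE 0.30, limma adjusted p = 0.0324), and the larger polysome change of 1.37 did not (SE 0.38, limma adjusted p = 0.0533). Without WT RNP replicate 2 or KO RNP replicate 2 or 3 the RNP call was lost (adjusted p up to 0.129). Within the KO, *Pdk3* was higher in polysomes than in the RNP pool by 1.43 (SE 0.25, limma adjusted p = 0.00249), and in WT by 1.13, which missed the threshold (limma adjusted p = 0.126). *Pdk1* was at 7.27, 9.65 and 2.04 FPKM in the WT RNP pool and at 18.0, 13.8 and 16.1 FPKM in the KO, a change of 1.39 with a wide error (SE 0.44, limma adjusted p = 0.0528). *Pdk2* was at 0 in 6 libraries and reached 3.57 FPKM in WT RNP replicate 3.

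Citrate synthase, which opens the TCA cycle, had the reverse division from most members. *Cs* (chr10:128337734-128362479, plus strand) was at 94.6, 95.2 and 108 FPKM in the WT polysome libraries and at 204, 246 and 238 FPKM in the WT RNP pool. In the KO it was at 144, 167 and 170 FPKM in polysomes and at 265, 328 and 289 FPKM in the RNP pool. Every RNP library stood above every polysome library, and the KO libraries above the WT libraries in each pool. The pool difference was -1.20 in WT (SE 0.14, limma adjusted p = 0.00103) and -0.87 in the KO (SE 0.12, limma adjusted p = 0.000587), with an interaction of 0.33 that did not pass (limma adjusted p = 0.516). The KO change was 0.69 in polysomes (SE 0.14, limma adjusted p = 0.0201), or 1.62 times, and 0.36 in the RNP pool (SE 0.11, limma adjusted p = 0.0533). The polysome call was lost without KO polysome replicate 2 or 3 (adjusted p up to 0.0941).

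Isocitrate dehydrogenase comes in an NAD-dependent mitochondrial form, made of *Idh3a*, *Idh3b* and *Idh3g*, and in the NADP-dependent *Idh1* and *Idh2*. *Idh3a* (chr9:54586334-54604661, plus strand), the catalytic subunit, rose in both pools of the KO. It was at 40.0, 61.6 and 46.9 FPKM in WT and 82.4, 95.2 and 89.9 FPKM in KO polysomes, and at 20.4, 31.5 and 22.3 FPKM in the WT and 59.3, 50.4 and 49.7 FPKM in the KO RNP pool. No KO library overlapped a WT library of its pool. The changes were 0.86 in polysomes (SE 0.20, limma adjusted p = 0.0299) and 1.09 in the RNP pool (SE 0.20, limma adjusted p = 0.00493). It was also higher in polysomes than in the RNP pool, by 0.97 in WT (SE 0.26, limma adjusted p = 0.0390) and 0.74 in the KO (limma adjusted p = 0.00312). The RNP and KO calls held under each alternative, the polysome call was lost without any KO polysome library or WT polysome replicate 1 or 3 (adjusted p up to 0.119), and the WT pool call without WT RNP replicate 1 or 3 or WT polysome replicate 2 or 3 (adjusted p up to 0.126).

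The other isocitrate dehydrogenase subunits were low and passed in no comparison. *Idh3b* lay between 1.77 and 10.6 FPKM and *Idh3g* between 0.762 and 3.62 FPKM, well under *Idh3a* on the same per-length scale. *Idh3b* shares exon sequence with *Nop56* on the other strand, which was at 2.22 to 16.1 FPKM, and reads of the 2 genes cannot be told apart in libraries without strand. *Idh1*, the cytosolic form, was at 1.44 to 21.3 FPKM, with its lowest value in WT polysome replicate 2. *Idh2* was at 0 in 10 libraries.

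In the next step of the cycle, the oxoglutarate dehydrogenase complex, the transcript of its succinyltransferase core was abundant. *Dlst* (chr12:85110833-85134845, plus strand) was at 164, 145 and 204 FPKM in WT and 278, 303 and 306 FPKM in KO polysomes, and at 61.4, 71.9 and 65.7 FPKM in the WT and 91.8, 90.7 and 89.3 FPKM in the KO RNP pool. Neither genotypes nor pools overlapped. The KO change was 0.80 in polysomes (SE 0.15, limma adjusted p = 0.0132) and 0.45 in the RNP pool (SE 0.12, limma adjusted p = 0.0282). The pool difference was 1.34 in WT (SE 0.17, limma adjusted p = 0.00155) and 1.69 in the KO (SE 0.10, limma adjusted p = 5.29e-06). The polysome call was lost without KO polysome replicate 2 or 3 (adjusted p up to 0.0563), and the RNP call without WT RNP replicate 1 or any KO RNP library (adjusted p up to 0.104).

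*Ogdh* (chr11:6291633-6356642, plus strand), the oxoglutarate dehydrogenase itself, was at 7.86, 6.26 and 17.8 FPKM in the WT polysome libraries and at 28.7, 20.1 and 24.3 FPKM in KO polysomes. Its RNP values were 5.16, 4.95 and 2.38 FPKM in WT and 4.47, 5.84 and 4.62 FPKM in the KO. The KO polysome libraries lay above all others. The pool difference in the KO was 2.08 (SE 0.24, limma adjusted p = 0.000259), and 1.10 in WT (SE 0.50, limma adjusted p = 0.186), and the polysome change between genotypes was 1.24 (SE 0.40, limma adjusted p = 0.0844). The interaction of 0.98 (SE 0.54) had an adjusted p of 0.540 from limma.

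Succinyl-CoA ligase pairs the alpha subunit *Suclg1* with the ATP-forming *Sucla2* or the GTP-forming *Suclg2*. *Suclg2* (chr6:95473009-95718800, minus strand) was at 6.77, 15.9 and 6.88 FPKM in the WT and 24.5, 25.8 and 26.5 FPKM in the KO RNP pool, and at 26.5, 15.7 and 16.4 FPKM in the WT and 21.9, 33.3 and 19.2 FPKM in the KO polysomes. The genotypes were apart in the RNP pool and overlapped in polysomes. The RNP change was 1.40 (SE 0.31, limma adjusted p = 0.0135), the largest of the 11 called there, and the polysome change 0.33 (SE 0.32, limma adjusted p = 0.566). *Sucla2* went the other way in mean, at 18.5, 25.3 and 14.4 FPKM in the WT and 13.7, 12.8 and 17.5 FPKM in the KO RNP pool, but the genotypes overlapped there and in polysomes. With 21.5, 23.1 and 26.4 FPKM in KO polysomes it was higher there than in the KO RNP pool by 0.66 (SE 0.20, limma adjusted p = 0.0372), a call lost without KO RNP replicate 1 or 2 or KO polysome replicate 2 or 3 (adjusted p up to 0.125). *Suclg1* stayed at 0.902 to 4.83 FPKM and was the member with the lowest change in polysomes, -0.77 (SE 0.46, limma adjusted p = 0.326), with each KO library under each WT library.

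Succinate dehydrogenase has 2 catalytic subunits, *Sdha* and *Sdhb*, and 2 membrane anchors, *Sdhc* and *Sdhd*. No member of it differed between genotypes past the threshold. The anchors were the abundant transcripts. *Sdhd* (chr9:50596357-50603812, minus strand) was at 186, 272 and 182 FPKM in the WT polysome libraries and at 359, 308 and 352 FPKM in the WT RNP pool. In the KO it was at 218, 275 and 306 FPKM in polysomes and at 351, 360 and 357 FPKM in the RNP pool. It was lower in polysomes in both genotypes, by -0.69 in WT (SE 0.17, limma adjusted p = 0.0289) and by -0.43 in the KO (SE 0.12, limma adjusted p = 0.0286). These calls were lost without any of the 3 RNP libraries of the same genotype, and in WT also without polysome replicate 1 or 3 (adjusted p up to 0.0956 in WT and 0.0846 in the KO).

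*Sdhc*, by contrast, lay on the polysome side in mean, at 162 to 185 FPKM in the polysome libraries of both genotypes and at 92.1 to 154 FPKM in the RNP libraries, but passed in no comparison. Its genotype change in polysomes was 0.01 with an SE of 0.12. *Sdha*, the flavoprotein, was at 37.0, 28.3 and 27.2 FPKM in WT and at 44.7, 57.5 and 45.9 FPKM in KO polysomes. The KO polysome libraries lay above the WT libraries, with a change of 0.67 that missed the threshold (SE 0.22, limma adjusted p = 0.0884). Its RNP values were 20.5, 13.3 and 19.2 FPKM in WT and 24.8, 28.6 and 22.8 FPKM in the KO, and in the KO it was higher in polysomes by 0.93 (SE 0.17, limma adjusted p = 0.00353). *Sdhb*, the iron-sulfur subunit, was the low member of the complex, at 0.173 to 1.69 FPKM.

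The last steps of the cycle are catalyzed by fumarase and malate dehydrogenase. *Mdh1* (chr11:21556787-21572367, minus strand), the cytosolic malate dehydrogenase of the malate-aspartate shuttle, was at 14.1, 14.5 and 27.9 FPKM in WT and 43.9, 48.1 and 36.9 FPKM in KO polysomes. Its RNP values were 6.09, 6.27 and 8.96 FPKM in WT and 14.1, 15.5 and 11.4 FPKM in the KO. The genotypes were apart in both pools. The change was 1.21 in polysomes (SE 0.30, limma adjusted p = 0.0394), the largest of the 7 called there, and 0.86 in the RNP pool (SE 0.27, limma adjusted p = 0.0476). The polysome call was lost without WT polysome replicate 1 or 2 or any KO polysome library (adjusted p up to 0.143), and the RNP call without WT RNP replicate 1 or 2 or any KO RNP library (adjusted p up to 0.166). *Mdh1* was higher in polysomes in the KO by 1.58 (limma adjusted p = 0.000348), and in WT by 1.24, which missed the threshold (SE 0.38, limma adjusted p = 0.0635). An exon of *Wdpcp* overlaps it on the other strand and was at 2.00 FPKM or less.

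*Mdh2*, the mitochondrial malate dehydrogenase, differed from *Mdh1* in that its groups overlapped throughout, at 33.1 to 50.0 FPKM in the 12 libraries. Its change was 0.33 in polysomes (SE 0.21) and 0.03 in the RNP pool (SE 0.16), with adjusted p values of 0.357 and 0.909 from limma. *Fh1*, the fumarase, was at 5.79, 5.75 and 7.49 FPKM in the WT and 9.64, 10.7 and 8.66 FPKM in the KO RNP pool, with no overlap but a change of 0.54 that did not pass (SE 0.26, limma adjusted p = 0.181).

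A wider list of 80 genes of the same metabolism, 78 of them in the table, held calls in both directions. In polysomes 2 of 46 tested were higher in the KO (4.35%) and 2 lower, against 5.64% and 4.73% of all genes. *Pdhx*, the protein that binds *Dld* to the pyruvate dehydrogenase complex, was at 123, 110 and 112 FPKM in WT and 179, 178 and 195 FPKM in the KO, a change of 0.68 (limma adjusted p = 0.0144). *Bpgm*, the bisphosphoglycerate mutase, ranked 6 of 24259 in WT polysomes and was at 3993, 4245 and 3484 FPKM in WT and 4852, 5161 and 5226 FPKM in the KO, a change of 0.38 (limma adjusted p = 0.0332) that became -0.12 under quantile normalization. *Lipt2*, which takes part in lipoate attachment, and *Sdhaf4*, an assembly factor of succinate dehydrogenase, were lower by -1.18 and -1.02. Each of these 4 calls was lost when some single library was left out, while the changes kept their direction. *Pdhx* was lost without KO polysome replicate 2 or 3 (adjusted p up to 0.0748) and *Bpgm* without these or WT polysome replicate 1 or 3 (up to 0.121). *Lipt2* was lost without KO polysome replicate 3 (0.0505) and *Sdhaf4* without KO polysome replicate 1 or 3 or WT polysome replicate 3 (up to 0.0898). In the RNP pool 9 of 47 were higher and 7 lower, against 10.5% and 10.2% of all genes. The largest changes upward were those of *Pdha2*, a retrogene copy of the alpha subunit (3.30), *Pgm2* (1.73), *Rpe* of the pentose phosphate pathway (1.13) and *Fbp2* (1.06). The largest downward were those of *Sdhaf1*, another succinate dehydrogenase assembly factor (-3.84), *Pfkfb2* (-2.08), *Lipt2* (-1.62) and the lactate and pyruvate carrier *Slc16a1* (-1.27). *Pfkfb2*, at 1.19, 4.34 and 7.55 FPKM in WT and 0.326, 0 and 0 FPKM in the KO, passed the filter only through the WT libraries and had to differ. The calls of *Pgm2*, *Fbp2* and *Pfkfb2* were lost without any of the 3 KO RNP libraries (adjusted p up to 0.0879, 0.0772 and 0.0744), and that of *Slc16a1* without KO RNP replicate 1 (0.0563).

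*Sdhaf1* stood at 76.4, 80.7 and 84.4 FPKM in the WT RNP libraries and at 3.02, 7.59 and 4.37 FPKM in the KO, far beyond the spread of either group (limma adjusted p = 5.12e-05). Between the pools, 6 of 48 of these genes were higher and 5 lower in polysomes in WT, and 10 of 48 higher and 5 lower in the KO, against 7.97% and 6.72% of all genes in WT and 15.5% and 13.8% in the KO. *Bpgm* (1.87 in WT and 1.53 in the KO) was on the polysome side with *Ldhb*, as was *Bsg*, the chaperone of lactate carriers (1.54 in WT). Further genes on the polysome side were *Rpe* (1.31) and the aspartate aminotransferase *Got1* (0.89) in WT, and the phosphatases *Pdp1* (1.48) and *Pgam5* (1.45) and the testis-type lactate dehydrogenase *Ldhc* (1.33) in the KO. The glucose carrier *Slc2a1* was on the RNP side, by -1.94 in WT and -2.14 in the KO. *Sdhaf1* (-1.35) and *Gpd1l* (-0.91) were also lower in WT polysomes, and *Sdhaf4* (-1.73), *Pdha2* (-1.12) and *Gpd1l* (-0.87) in KO polysomes. Among the others, *Got1* in WT was lost without any of its 6 libraries (adjusted p up to 0.157), *Gpd1l* in WT without any WT RNP library or WT polysome replicate 2 or 3 (up to 0.143) and in the KO without KO RNP replicate 3 (0.0628), *Sdhaf1* without any WT RNP library (up to 0.0603), *Ldhc* without replicate 2 or 3 of either KO pool (up to 0.140) and *Pdha2* without KO RNP replicate 1 or 2 (up to 0.0847).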

How the data were processed

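The deposited table gave FPKM per gene symbol for 12 Smart-seq2 libraries of polysome and RNP pools. Per the labels and the methods, the authors aligned paired-end reads to mm10 with TopHat2 2.0.13 and made the FPKM values with Cufflinks 2.2.1, Cuffnorm and Cuffdiff. The annotation release is not given in the sources used here. The 54 columns of the authors' own comparisons (log2 fold changes, p-values and q-values) were not used. FPKM holds no counts, so depth was estimated from the steps between the lowest values of genes, and a precision from counting was not computed.

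Each comparison was fitted on log2(FPKM + 1) with limma 3.58.1 in R 4.3.3 (lmFit, eBayes with an intensity trend), over genes at 1 FPKM or more in at least 3 libraries of the comparison, with Benjamini-Hochberg adjustment over all genes tested and a threshold of 0.05. Only the 6 libraries of a comparison entered its fit, and the interaction used all 12. The fits were tested on simulated data. Groups followed the GEO labels. All 44 members were described by group. Members called in at least 1 comparison were given in full, where a comparison called more than 12 members for the 6 largest changes in each direction, and of the other pathway genes at most 4 called in each direction per comparison were named. The members and lists were chosen with earlier results of these data known. Gene positions come from GENCODE M21 on GRCm38, and near-identical copies from blastn 2.17.0. A polysome and an RNP pool came from each lysate, but which libraries share a lysate is not given in the sources used here. Over 12 pairs, same-numbered libraries had correlations of -0.021 to 0.026 in their deviations from group means. Pairs of KO with WT libraries among them cannot share a lysate, and the pairs of pools within a genotype had correlations of -0.0088 to 0.00024. No pairing by number was therefore detectable and none was used. Total RNA and crosslinking libraries of the study were not analysed here, and 1 gene of the wider pathway list is not reported here.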

Additional observations from a re-analysis of the deposited data

Results flagged for a closer look

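A difference between genotypes in the division between pools was called for 1 gene of the wider pathway list, *Sdhaf4*, an assembly factor of succinate dehydrogenase. It was at 89.6, 78.4 and 120 FPKM in WT polysomes and 40.8, 57.6 and 42.0 FPKM in KO polysomes, and at 116, 92.3 and 94.1 FPKM in the WT and 182, 135 and 155 FPKM in the KO RNP pool. In polysomes the KO libraries thus lay under, and in the RNP pool above, the WT libraries, without overlap. The interaction was -1.65 (SE 0.27, limma adjusted p = 0.0243). It missed the threshold in 10 of 20 alternatives, among them those without WT RNP replicate 2 or 3, without any KO RNP library and without KO polysome replicate 1 or 3 (adjusted p up to 0.139 over all alternatives), and stayed between -1.80 and -1.48. An exon of *Gm26524* overlaps the gene on the other strand.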

How the results depend on the processing

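The 51 tests of members behind the text were recomputed under 769 alternatives in all. Of these, 644 kept both direction and side of the threshold, 124 kept the direction but missed the threshold, and 1 changed sign. The sign changes were those of *Ldhb* (-0.030) and, among the other pathway genes, *Bpgm* (-0.12) in polysomes between genotypes, both under quantile normalization. The 7 polysome calls became 3 without a filter on low values, 4 with the replicate block, 0 without the intensity trend (limma, with 13 at an unadjusted p under 0.05) and 11 with all 12 libraries in 1 fit, and ranged from 1 to 7 when 1 library was left out. The 11 RNP calls became 7 with the replicate block and 7 without the intensity trend, and ranged from 5 to 9. The 11 WT pool calls became 6 without the trend and ranged from 6 to 9, while the 19 KO pool calls ranged from 16 to 19. The cause was not tested. Over all genes, the 989 polysome calls became 545 without the filter, 508 without the trend and 1843 in 1 fit, the 1406 WT pool calls 728 without the trend and 2302 in 1 fit, and the 26 interaction calls 0 with the block and 6 without the trend. Leaving out KO polysome replicate 1, 2 or 3 left 522, 398 or 383 polysome calls, leaving out a KO RNP library 1255 to 1298 of the 2057 RNP calls, and leaving out a WT RNP library 780 to 786 of the WT pool calls. The interaction calls ranged from 0 without KO RNP replicate 2 to 46 without WT polysome replicate 3, with 1 to 3 without KO RNP replicate 1 or 3 or WT RNP replicate 2 or 3, 10 without KO polysome replicate 2 and 15 without KO polysome replicate 3. With the filter removed, *Ldhb* also lost its polysome call. No pairing by replicate number was detectable. In 3 of 12 comparisons a library was closest to one of its own number, each time one of the other genotype. With 3 libraries a group and FPKM as the only unit, small changes of low genes were not detectable.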
